A study of Saccharomyces cerevisiae W303 with 30 samples.

Results

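The response of 4 yeast degron strains to 3-IAA (indole-3-acetic acid, an auxin) was measured by sequencing newly synthesized RNA (nsRNA-seq). All 12 libraries of 3-IAA-treated cells were set against all 12 libraries of cells given the vehicle DMSO, with the strain as a block, so 24 of the 30 libraries of the series were used in the main comparison. A gene was called shared when it passed an adjusted p of 0.05 in that comparison (edgeR's quasi-likelihood test, Benjamini-Hochberg adjustment over 5834 genes) and its fold change had 1 sign in all 4 strains. By this rule 1217 of 5834 genes were shared. Of these, 552 were higher and 665 were lower in 3-IAA.

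The strains were Saccharomyces cerevisiae W303 haploids of mating type a that carried the rice F-box protein OsTIR1 under the constitutive GPD1 promoter at leu2, and the W303 alleles ade2-1, can1-100, trp1-1 and ura3-1 and those of his3 and leu2. In Med16-AID, MED16 was fused to 3xV5-IAA7 with kanMX6. In Med15-AID, MED15 was fused to 3xHA-IAA7 with HIS3MX6. Med15/Med16-AID carried both fusions, and Mot1/Med16-AID carried the MED16 fusion together with MOT1-3xHA-IAA7. Each strain gave 3 libraries of cells treated with 0.5 mM 3-IAA for 30 min and 3 of cells given DMSO at 1 part in 2000, followed by 6 min of labelling with 4-thiouracil. The med16-deletion strain (med16::LEU2, also lys2) and wildtype, 3 libraries each, were listed with the same W303 alleles but no OsTIR1, received neither 3-IAA nor DMSO, and were used here only as a reference for lasting loss of Med16. Every degron strain was built to lose at least 1 subunit of the Mediator tail when 3-IAA is added, and an OsTIR1 strain without a degron was not analysed here. An effect of 3-IAA itself and an effect of losing tail subunits therefore cannot be told apart in the values that follow.

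Mediator is the large coactivator complex that passes signals from DNA-bound activators to RNA polymerase II. Its tail module, which contains Med15 and Med16, is the part that activators contact at upstream activating sequences, and Med16 joins the tail to the rest of the complex. Mot1 is an ATPase that removes the TATA-binding protein from DNA. In the degron system, auxin brings a tagged protein to OsTIR1 for ubiquitylation and destruction by the proteasome, so the protein is lost while its gene is still transcribed.

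Sense counts on genes ranged between 4020558 and 6912702 in the 12 libraries of 3-IAA-treated cells and between 4283184 and 5945863 in the 12 DMSO libraries. The 10 most abundant genes took between 2.29% and 4.74% of the counts with 3-IAA and between 3.72% and 4.96% with DMSO. Med16-AID, wildtype and med16-deletion were taken here as 1 set of 12 libraries and the other strains as a set of 18. The sample titles do not state a sequencing batch. Both treatments of a strain were always in the same set. The labels do not say which cultures the replicates came from, so p-values measure the spread between these samples. Levels are given as TMM-normalised CPM (counts per 1000000), which show a gene relative to the other genes of a library, so a change common to all genes cannot be seen. BAR1, the a-cell protease gene, had 0 counts in all 24 degron libraries, against 909 to 1858 counts in the 6 libraries of med16-deletion and wildtype, so the backgrounds also differ at BAR1. The summed level of 6 a-specific mating genes, BAR1 among them, was 1319 to 2591 CPM with 3-IAA and 1477 to 2764 CPM with DMSO. That of 4 alpha-specific genes was 32.2 to 66.2 CPM with 3-IAA and 22.3 to 51.8 CPM with DMSO, far below the a-specific sum in each library.

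The degron genes themselves stayed transcribed. MED15 had 141 to 215 CPM over the 12 libraries with 3-IAA and 145 to 211 CPM over those with DMSO (log2 fold change 0.04, adjusted p = 0.706, edgeR). MED16 ranged between 166 and 224 CPM with 3-IAA, and its log2 fold change of 0.12 passed the threshold by little (adjusted p = 0.0347). In the deletion comparison, MED16 had 3.60, 2.57 and 2.19 CPM in med16-deletion, against 179, 201 and 204 CPM in wildtype, as those labels state. MOT1 did not move as a block (log2 fold change -0.13, adjusted p = 0.359), and the strains had opposite signs. In Mot1/Med16-AID, MOT1 had 1067, 1384 and 1201 CPM with 3-IAA, against 806, 716 and 799 CPM with DMSO (log2 fold change 0.65). In Med16-AID, Med15-AID and Med15/Med16-AID its log2 fold changes were -0.56, -0.37 and -0.33. The interaction of strain and treatment had an adjusted p of 6.05e-08 for MOT1. RNA levels of the tagged genes carry no information on the loss of the proteins.

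Most shared changes were small, and on the TMM scale the median fall was slightly larger than the median rise. In the blocked comparison 1664 genes passed (28.5%), of which 790 were higher (13.5%) and 874 lower (15%) with 3-IAA. The balance depends on the scaling: higher genes were 47.5% of the calls with TMM, 63.5% with upper-quartile factors and 88.9% with library totals alone, which moved the median of all genes to 0.14. Counts of lists are therefore given on the TMM scale, and the counts with library totals alone stand beside those whose balance changes. With library totals alone 3158 of 5834 genes were higher and 394 lower, the background for those counts. The median of a list moves with that of all genes. For the list of arginine and other amino acid pathways, its distance from the median of all genes was -0.149 on both scales. The median log2 fold change of the 552 shared higher genes (9.46%) was 0.23, and 482 of them changed by less than 0.5. The 665 shared lower genes (11.4%) had a median of -0.26, and 530 of them changed by less than 0.5. These medians differ in size by less than library totals alone moved the median of all genes. Which of them is larger therefore depends on the scaling. Log2 fold changes above 1 were found in 7 shared higher genes, and changes below -1 in 19 shared lower genes. The shared lower genes also lay at a higher level, with a median mean log2 CPM of 8.17, against 6.78 over all genes tested, while the shared higher genes lay at 6.09. Their median gene lengths were 986.5 bases for shared lower, 1539 bases for shared higher and 1242 bases for all genes.

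Few genes passed in each strain taken by itself. In contrasts of 3-IAA against DMSO within a strain, each with its own DMSO libraries, 99 genes (1.70%) were called lower in all 4 strains and 10 genes (0.171%) were called higher in all 4, namely BIO2, CAT2, ACH1, FMS1, EUG1, HEM13, UGA1, TDA4, PMT3 and the biotin protein ligase gene BPL1. In 140 genes (2.40%) the 3-IAA libraries lay below the DMSO libraries in every strain, and in 30 genes (0.514%) they lay above them in every strain. Mot1/Med16-AID had the most calls, with 1162 higher (19.9%) and 1142 lower (19.6%). Med16-AID had 480 higher (8.23%) and 721 lower (12.4%), Med15-AID had 163 higher (2.79%) and 458 lower (7.85%), and Med15/Med16-AID had 175 higher (3.00%) and 421 lower (7.22%). The study, which scaled to spike-in reads, reported most changed genes of Med16-AID as upregulated. The balance on the TMM scale was the opposite. The largest change of a shared higher gene lay in Mot1/Med16-AID for 294 genes (53.3%), a share close to the 48.0% of all genes tested. Of the shared higher genes, 121 were called in no single strain and 298 in 1 strain, as against 51 and 216 of the shared lower genes. Within the set of 18 libraries, which leaves out Med16-AID, 1728 genes passed as a block, and within the other set the contrast of Med16-AID alone called 1201.

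**Figure D1:**
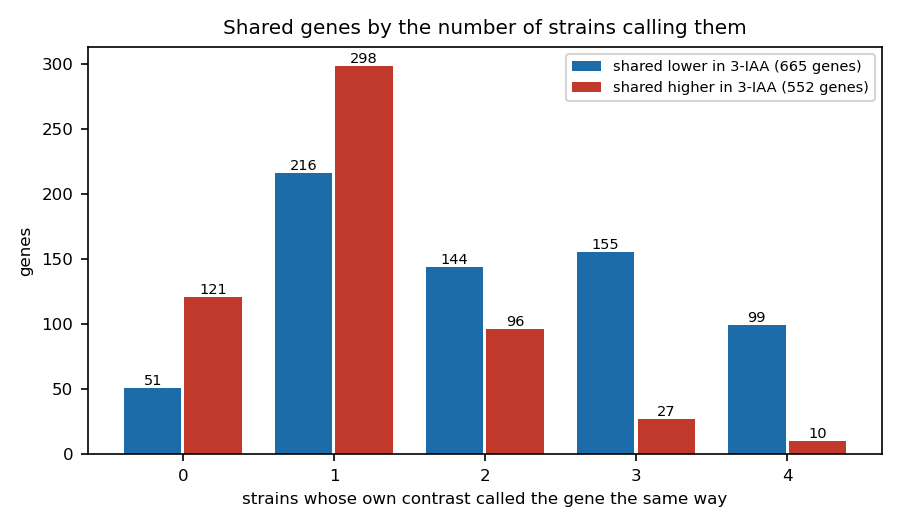
Number of shared genes (vertical axis, genes) by the number of strains whose own 3-IAA against DMSO contrast called the gene in the same direction (horizontal axis, 0 to 4 strains), for shared lower and shared higher genes. Shared lower genes reach 99 at 4 strains, where 10 shared higher genes stand.

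The clearest falls were in genes of oxidative and chemical stress defence. In yeast the transcription factor Yap1 turns on thioredoxin, glutathione and drug efflux genes after oxidation, and the Pdr1 and Pdr3 factors turn on drug pumps. Of 26 tested genes of the oxidative stress list, 23 fell, none rose, 18 were shared lower and 11 were called lower in each strain. None rose at an unadjusted p of 0.05 or by DESeq2 either, and 1 did when library totals alone set the scale. Over all genes tested, 15% fell, 13.5% rose, 11.4% were shared lower and 1.70% were called lower in each strain. The median log2 fold change of the list was -0.59, against 0.01 over all genes tested. It was -0.52 in Med16-AID, -0.75 in Med15-AID, -0.81 in Med15/Med16-AID and -0.33 in Mot1/Med16-AID. The list was chosen with earlier results of these data known.

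Promoter sequences of shared stress genes are shown where the letters bound by Yap1 occur. In the 300 bases before the start codon, the letters TTACTAA or TTAGTAA (the same site read on either strand) were found in 21 of 99 promoters of genes called lower in each strain (21.2%), in 87 of 662 promoters of shared lower genes (13.1%), in 45 of 537 promoters of shared higher genes (8.38%) and in 456 of 5628 promoters of all genes tested (8.10%). Within the oxidative stress list 11 of 25 promoters held them (44.0%). That list was drawn up as genes of Yap1 type, so its share is not an independent result. FLR1, ATR1, OYE2 and AHP1, the largest falls among those 25, held no match. The 3 promoters below, chosen after their values were seen, belong to OSI1, which holds the letters 5 times, to the glutathione peroxidase gene GPX2 and to the thioredoxin gene TRX2. Each stretch runs 5′ to 3′ in the direction of the gene, ends 100 bases before its start codon and has the matching letters in capitals (RefSeq, build R64, which is sacCer3).
OSI1 (chrXI:304814-305013, plus strand): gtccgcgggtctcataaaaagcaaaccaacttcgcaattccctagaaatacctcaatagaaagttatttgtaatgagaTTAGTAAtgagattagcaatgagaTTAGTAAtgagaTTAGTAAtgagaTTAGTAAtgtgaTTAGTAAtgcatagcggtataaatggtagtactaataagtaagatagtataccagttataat
GPX2 (chrII:707228-707427, plus strand): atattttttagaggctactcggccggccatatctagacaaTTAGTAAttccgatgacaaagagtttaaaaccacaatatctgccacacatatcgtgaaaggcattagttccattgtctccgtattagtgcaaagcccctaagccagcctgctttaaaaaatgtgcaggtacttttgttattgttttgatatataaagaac
TRX2 (chrVII:913328-913527, minus strand): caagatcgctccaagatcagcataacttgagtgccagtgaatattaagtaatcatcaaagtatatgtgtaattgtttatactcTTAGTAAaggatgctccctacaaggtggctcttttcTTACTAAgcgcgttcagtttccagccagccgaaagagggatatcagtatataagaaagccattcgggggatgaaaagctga
The first letters of the OSI1 matches lie 222, 198, 186, 174 and 162 bases before the start codon, that of GPX2 lies at 260 bases, and those of TRX2 at 217 and 181 bases. A match of letters is a description and was not tested as a site.

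OSI1, named for its induction by oxidative stress, fell in every strain, although the strains had unequal vehicle levels. In Med16-AID it had 405, 353 and 270 CPM with 3-IAA, against 863, 740 and 634 CPM with DMSO. In Med15-AID it had 320, 345 and 350 CPM with 3-IAA, against 853, 878 and 901 CPM with DMSO. In Med15/Med16-AID it had 61.5, 65.1 and 54.1 CPM with 3-IAA, against 198, 195 and 178 CPM with DMSO. In Mot1/Med16-AID it had 58.0, 48.5 and 60.0 CPM with 3-IAA, against 101, 125 and 114 CPM with DMSO. The treated libraries lay below the vehicle libraries within each strain, although the treated level in Med16-AID and Med15-AID was above the vehicle level in the other 2 strains. The blocked log2 fold change of OSI1 was -1.30 (SE 0.07, adjusted p = 9.48e-13).

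FLR1 (YBR008C, chromosome II, 252563 to 254209, minus strand, build R64), a plasma membrane transporter of the major facilitator family that exports drugs, had the largest fall of the genes whose libraries did not overlap in any strain. With 3-IAA it had 494, 509 and 558 CPM in Med15-AID, against 1940, 2182 and 2096 CPM with DMSO. In Med15/Med16-AID it had 536, 521 and 511 CPM with 3-IAA, against 2164, 2386 and 2019 CPM with DMSO. In Med16-AID the values were 1819, 1777 and 1629 CPM with 3-IAA, against 3543, 3081 and 2619 CPM with DMSO, and in Mot1/Med16-AID 1618, 1421 and 1772 CPM, against 2468, 2552 and 2904 CPM. All 12 treated libraries lay below all 12 vehicle libraries. The fall was deeper in both strains with a Med15 degron, with log2 fold changes of -1.99 and -2.07, than in Med16-AID (-0.82) and Mot1/Med16-AID (-0.72), and the interaction of strain and treatment had an adjusted p of 6.37e-09.

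GRE2 (YOL151W, chromosome XV, 43694 to 44722, plus strand), a methylglyoxal reductase gene of the stress response, also fell most in the strains with a Med15 degron. It had 621, 644 and 660 CPM with 3-IAA, against 2353, 2381 and 2409 CPM with DMSO, in Med15-AID, and 1552, 984 and 1299 CPM, against 1658, 1938 and 2132 CPM, in Mot1/Med16-AID. The groups did not overlap in either strain, but in Mot1/Med16-AID the highest treated library came close to the lowest vehicle library. The blocked log2 fold change of GRE2 was -1.32 (SE 0.13).

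Other transporters and redox enzymes fell with them. ATR1, an exporter of aminotriazole and borate, had log2 fold changes of -1.12 in Med16-AID, -1.58 in Med15-AID, -1.33 in Med15/Med16-AID and -0.92 in Mot1/Med16-AID. Its levels were 252 to 687 CPM with 3-IAA and 717 to 1366 CPM with DMSO, which do not overlap. SNQ2 and PDR5, ABC transporters that pump out drugs, fell by 1.05 and 0.98 on the log2 scale. OYE2, an NADPH oxidoreductase known as old yellow enzyme, had 1289 to 3428 CPM with 3-IAA and 3601 to 5640 CPM with DMSO, again without overlap. AHP1, a thiol peroxidase, had a blocked log2 fold change of -1.17, with -1.94 in Med15-AID and -0.52 in Med16-AID. Over the weak acid and multidrug resistance list, 18 of 35 tested genes fell and 4 rose, and 12 were shared lower, while library totals alone gave 10 higher and 14 lower. On the TMM scale 15% of all genes fell, 13.5% rose and 11.4% were shared lower.

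In other genes of this group the interaction did not pass. TRR1, cytosolic thioredoxin reductase, had log2 fold changes of -0.74, -0.75, -0.85 and -0.93 in Med16-AID, Med15-AID, Med15/Med16-AID and Mot1/Med16-AID (interaction adjusted p = 0.44). It had 578 to 1315 CPM with 3-IAA, against 1156 to 2320 CPM with DMSO. GTT2, a glutathione transferase, ranged between -0.70 and -0.87 over the strains (interaction adjusted p = 0.82). SRX1, sulfiredoxin, fell by 0.85 on the log2 scale with no overlap in 3 strains, and its strain values were -0.66, -1.23, -0.77 and -0.94 in the same order (interaction adjusted p = 0.691). These p-values do not show that the strains responded alike.

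**Figure D2:**
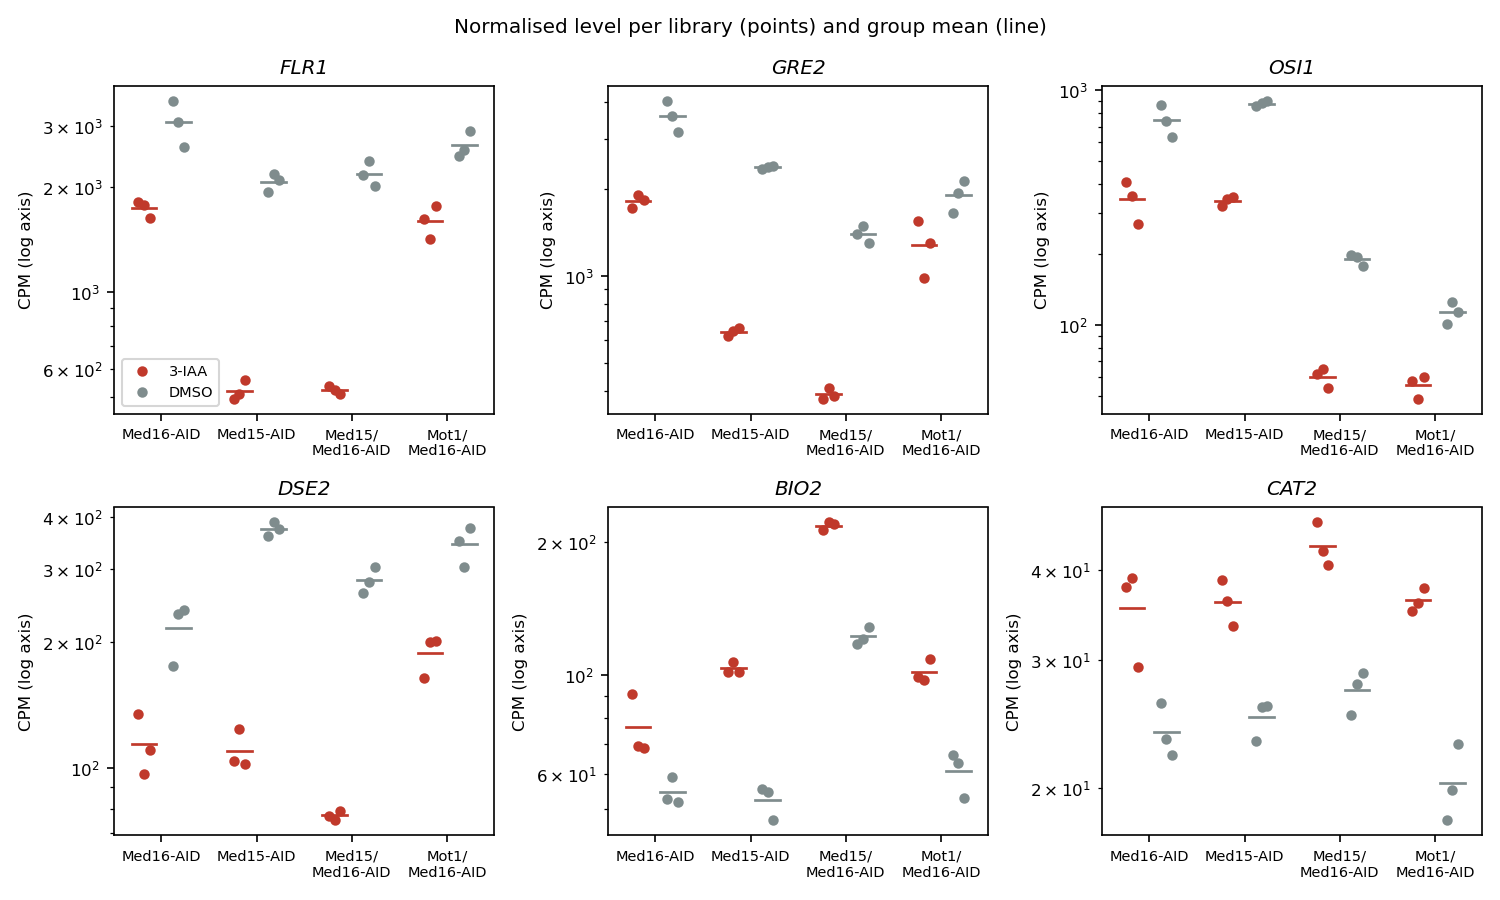
Level of 6 shared genes in each library (points, CPM on a log axis) with the group mean (line), by strain along the horizontal axis, 3-IAA left of DMSO. FLR1, GRE2, OSI1 and DSE2 lie lower and BIO2 and CAT2 higher with 3-IAA in each of the 4 strains, without overlap within a strain.

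Some of the genes that act at the cell wall when mother and daughter separate fell as well. DSE2 (YHR143W, chromosome VIII, 385510 to 386487, plus strand), a daughter cell wall protein, had 104, 124 and 102 CPM with 3-IAA, against 360, 387 and 374 CPM with DMSO, in Med15-AID. In Med15/Med16-AID it had 77.0, 75.2 and 79.3 CPM, against 263, 280 and 303 CPM. In Med16-AID it had 135, 96.8 and 111 CPM, against 175, 233 and 240 CPM, and in Mot1/Med16-AID 164, 201 and 201 CPM, against 350, 303 and 376 CPM. The vehicle libraries lay above the treated libraries in each strain. In bulk cultures, fewer cells that transcribe such a gene and less RNA per cell cannot be told apart. The blocked log2 fold changes were -1.35 for DSE2 (adjusted p = 4.05e-10), -1.19 for the glucanase SCW11, -1.08 for the endoglucanase EGT2 and -0.79 for the chitinase CTS1. These genes had no list of their own. They belong to a mixed list of hypoxic genes and cell wall proteins, in which 23 of 44 tested genes fell, 5 rose and 15 were shared lower (12 higher and 18 lower with library totals alone). The shares over all genes on the TMM scale were 15% lower, 13.5% higher and 11.4% shared lower.

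The rest of the 15 largest falls had varied roles. SRD1 (rRNA processing), NDJ1 (a telomere protein of meiosis), ZEO1 (a membrane protein of the cell integrity pathway) and MTC7, whose function is unknown, fell by 1.18, 1.15, 1.02 and 1.08 on the log2 scale. YER053C-A, a small uncharacterised gene, fell by 1.11, with 71.0 to 83.1 CPM with 3-IAA and 257 to 291 CPM with DMSO in Med15-AID, but 291 to 304 CPM and 319 to 360 CPM in Mot1/Med16-AID, where its own contrast did not pass. All 15 largest falls had an interaction adjusted p under 0.05. The deepest change lay in Med15-AID for 8 of them, in Med15/Med16-AID for 6 and in Med16-AID for 1. Mot1/Med16-AID had the shallowest change for 11. The median log2 fold changes of the 15 genes were -0.83 in Med16-AID, -1.58 in Med15-AID, -1.57 in Med15/Med16-AID and -0.73 in Mot1/Med16-AID.

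**Figure D3:**
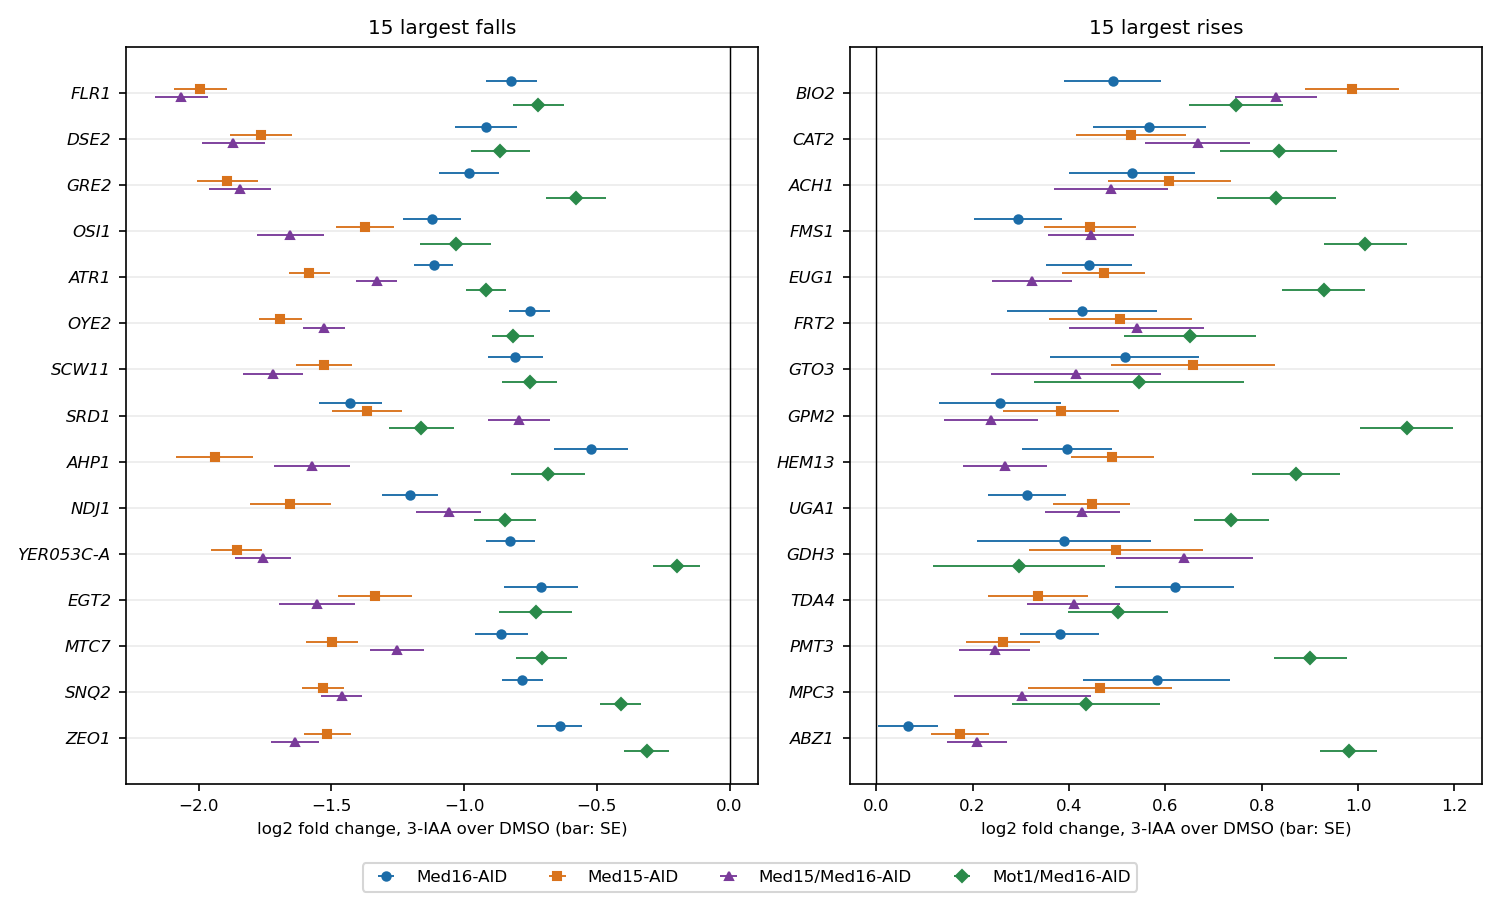
Log2 fold change of 3-IAA over DMSO (horizontal axis) with its SE (bars) in each strain for the 15 largest falls and the 15 largest rises among genes whose libraries did not overlap in any strain. The falls are deepest in the strains with a Med15 degron, with medians of -1.58 and -1.57, and the rises are largest in Mot1/Med16-AID, with a median of 0.83.

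The rises were smaller and of mixed function. BIO2 (YGR286C, chromosome VII, 1063813 to 1064940, minus strand), biotin synthase, had the largest rise among genes without overlap, with 213, 222 and 220 CPM with 3-IAA, against 118, 121 and 129 CPM with DMSO, in Med15/Med16-AID. It had 102, 107 and 102 CPM, against 55.4, 54.5 and 47.1 CPM, in Med15-AID. In Med16-AID it had 90.9, 69.4 and 68.5 CPM, against 52.7, 58.8 and 51.7 CPM, and in Mot1/Med16-AID 99.2, 97.7 and 109 CPM, against 66.2, 63.5 and 52.9 CPM. The treated libraries stood above the vehicle libraries of their own strain each time. The blocked log2 fold change of BIO2 was 0.77 (SE 0.06, adjusted p = 1.18e-10).

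CAT2 (YML042W, chromosome XIII, 192788 to 194800, plus strand), carnitine acetyltransferase, was the gene among the 15 largest rises whose 12 treated libraries (29.3 to 46.5 CPM) all lay above its 12 vehicle libraries (18.0 to 28.8 CPM). Its log2 fold changes of 0.57, 0.53, 0.67 and 0.84 in Med16-AID, Med15-AID, Med15/Med16-AID and Mot1/Med16-AID gave a blocked value of 0.65 (interaction adjusted p = 0.429). ACH1, a mitochondrial CoA transferase that acts on acetate, rose by 0.61, and MPC3, a subunit of the mitochondrial pyruvate carrier, by 0.44. FMS1 (polyamine oxidase), HEM13 (coproporphyrinogen oxidase of haem synthesis), UGA1 (GABA transaminase), GDH3 (glutamate dehydrogenase), EUG1 (a protein disulfide isomerase) and PMT3 (protein O-mannosyltransferase) rose by 0.56, 0.50, 0.48, 0.47, 0.54 and 0.45. The other 5 of the 15 largest rises, FRT2, GTO3, GPM2, TDA4 and ABZ1, ranged between 0.37 and 0.54. ABZ1, an enzyme of folate synthesis, had 386, 387 and 406 CPM with 3-IAA in Mot1/Med16-AID, against 206, 190 and 202 CPM with DMSO. In Med16-AID it had 159, 146 and 146 CPM, against 140, 145 and 145 CPM, a log2 fold change of 0.07 that did not pass there. Mot1/Med16-AID had the largest change for 10 of the 15 rises, with a median of 0.83, against 0.43 in Med16-AID, 0.47 in Med15-AID and 0.41 in Med15/Med16-AID.

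TATA boxes were common before genes of both directions. A TATA box was taken as any of TATAAAAA, TATAAAAG, TATAAATA, TATAAATG, TATATAAA, TATATAAG, TATATATA and TATATATG on either strand. It was present in 63 of 99 promoters of genes called lower in each strain (63.6%), in 49.5% of shared lower and 49.2% of shared higher promoters, and in 2314 of 5628 promoters of all genes tested (41.1%). The stretches of EGT2 and BIO2, a fall and a rise that both hold such a box outside the last 100 bases, are shown with the letters in capitals, from the same build and in the same direction. They were chosen after their values were seen.
EGT2 (chrXIV:23748-23947, plus strand): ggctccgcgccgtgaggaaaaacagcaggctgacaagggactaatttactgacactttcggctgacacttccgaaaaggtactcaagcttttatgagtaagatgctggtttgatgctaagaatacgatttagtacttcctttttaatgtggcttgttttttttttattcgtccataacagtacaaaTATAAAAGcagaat
BIO2 (chrVII:1065041-1065240, minus strand): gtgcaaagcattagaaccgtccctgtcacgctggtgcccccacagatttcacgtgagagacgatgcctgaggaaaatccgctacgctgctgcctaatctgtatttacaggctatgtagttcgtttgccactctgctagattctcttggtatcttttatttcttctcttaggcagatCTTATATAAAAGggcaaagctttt
The letters begin 114 bases before the start codon of EGT2 and 124 bases before that of BIO2, where 3 matches overlap, the first of them on the opposite strand. The Gcn4 site TGACTC was found in 16.2% of promoters of genes called lower in each strain, 9.52% of shared lower, 7.64% of shared higher and 7.98% of all promoters. The general stress element AGGGG was found in 28.3%, 21.1%, 25.7% and 22.5% of the same sets. The pleiotropic drug response element (TCCGCGGA or TCCGTGGA) was found in 2.02%, 0.453%, 0.559% and 0.657% of the same sets. For the RRPE element AAAAATTTT the shares were 6.06%, 10.9%, 3.72% and 7.71%. For the PAC element GATGAG they were 11.1%, 17.4%, 12.1% and 18.8%. Shares of the other motifs searched are not given. Some of these motifs can overlap.

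FLO11 (YIR019C, chromosome IX, 389572 to 393675, minus strand), the cell surface flocculin of filamentous growth, had the largest blocked log2 fold change of all shared genes (2.14, adjusted p = 9.65e-07), although its strains differed. It had 92.3, 100.4 and 106 CPM with 3-IAA, against 4.96, 9.38 and 9.03 CPM with DMSO, in Med16-AID, and 45.6, 58.2 and 47.8 CPM, against 12.8, 8.73 and 9.82 CPM, in Mot1/Med16-AID. In Med15-AID it had 6.42, 8.42 and 5.58 CPM, against 5.15, 5.68 and 6.45 CPM, which overlap, and in Med15/Med16-AID 7.69, 7.07 and 8.86 CPM, against 3.37, 4.60 and 5.72 CPM. The libraries did not overlap in Med15/Med16-AID either. The log2 fold changes were 3.67 in Med16-AID and 2.27 in Mot1/Med16-AID, and the interaction had an adjusted p of 6.89e-09. In med16-deletion FLO11 had 99.6, 111 and 89.8 CPM, against 3.21, 2.22 and 4.65 CPM in wildtype. FLO11 was described after its values were seen.

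Genes of glycolysis fell together, with the lowest medians in the strains with a Med15 degron. Of 26 tested genes of the glycolysis and fermentation list, 21 fell, 3 rose and 20 were shared lower, yet none was called lower in each strain. The shares over all genes were 15%, 13.5%, 11.4% and 1.70% in the same order. The list median was -0.65 as a block, -1.24 in Med15-AID and -0.98 in Med15/Med16-AID, and -0.23 in Med16-AID and -0.12 in Mot1/Med16-AID. PDC1, the main pyruvate decarboxylase, had 1458, 1379 and 1584 CPM with 3-IAA, against 4788, 4579 and 4386 CPM with DMSO, in Med15-AID. In Mot1/Med16-AID it had 4077, 3993 and 4513 CPM, against 5034, 5381 and 4698 CPM. The groups did not overlap in either strain. TPI1, triose phosphate isomerase, and the pyruvate kinase gene CDC19 fell by 0.91 and 0.75 as a block.

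The glucose transporter genes HXT1 and HXT3 were among the 5 shared genes with the smallest interaction p. HXT3 had 855, 824 and 947 CPM with 3-IAA, against 2123, 2284 and 2149 CPM with DMSO, in Med15-AID. In Med16-AID it had 1829, 1914 and 1712 CPM, against 1915, 1953 and 1741 CPM, which overlap. HXT1 had log2 fold changes of -1.84 in Med15-AID, -1.60 in Med15/Med16-AID, -0.35 in Med16-AID and -0.31 in Mot1/Med16-AID. Over the hexose transport and sensing list as a whole, 4 of 20 tested genes were higher and 4 lower, against 13.5% and 15% over all genes. The median of that list was 0.09 (7 higher and 2 lower with library totals alone). The glucose-repressed and gluconeogenic list went the other way as a block, with 15 of 33 tested genes higher, 3 lower and a median of 0.27 (23 higher and 2 lower with library totals alone). Of these 33 genes, 10 were shared higher and 2 shared lower, against 9.46% and 11.4% over all genes. The list medians were 0.43 in Med16-AID, 0.20 in Med15-AID, 0.29 in Med15/Med16-AID and 0.05 in Mot1/Med16-AID. In Mot1/Med16-AID 6 genes were called higher and 6 lower. ADH2 rose by 0.67, the carnitine carrier CRC1 by 0.91 and invertase SUC2 by 0.21. Under each scaling tried, the medians of the glycolysis, oxidative stress and glucose-repressed lists kept their sign.

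Ribosomal protein genes fell by small amounts in all 4 strains. All 57 tested genes of the small subunit and 73 of 82 of the large subunit fell in the blocked comparison, and 49 and 72 of them were shared lower. Both lists had a median log2 fold change of -0.22. The strain medians of the large subunit were -0.33, -0.24, -0.17 and -0.17 in Med16-AID, Med15-AID, Med15/Med16-AID and Mot1/Med16-AID. The contrasts within a strain called 64, 23, 7 and 26 of the 82 genes lower in the same order, and 50, 17, 2 and 22 of the 57. In each of the 4 strains, 1 gene of the large subunit and 0 of the small subunit were called. The interaction passed for 3 of the 82 and 4 of the 57 genes, against 1767 of all 5834 genes (30.3%). For changes this small, that count does not show that the strains responded alike. RPL10 had 1202 to 1716 CPM with 3-IAA, against 1601 to 2124 CPM with DMSO, ranges that overlap across strains (log2 fold change -0.43). Since these medians are small, they depend on the scaling: with library totals alone they were -0.09, while all genes then had a median of 0.14, and 17 of 57 and 31 of 82 genes passed as lower. Of 102 ribosome biogenesis genes, 22 fell and 2 rose, with a median of -0.04, while library totals alone gave 1 lower, 34 higher and a median of 0.09. For these lists, the shares over all genes on the TMM scale were 15% lower, 13.5% higher and 11.4% shared lower.

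**Figure D4:**
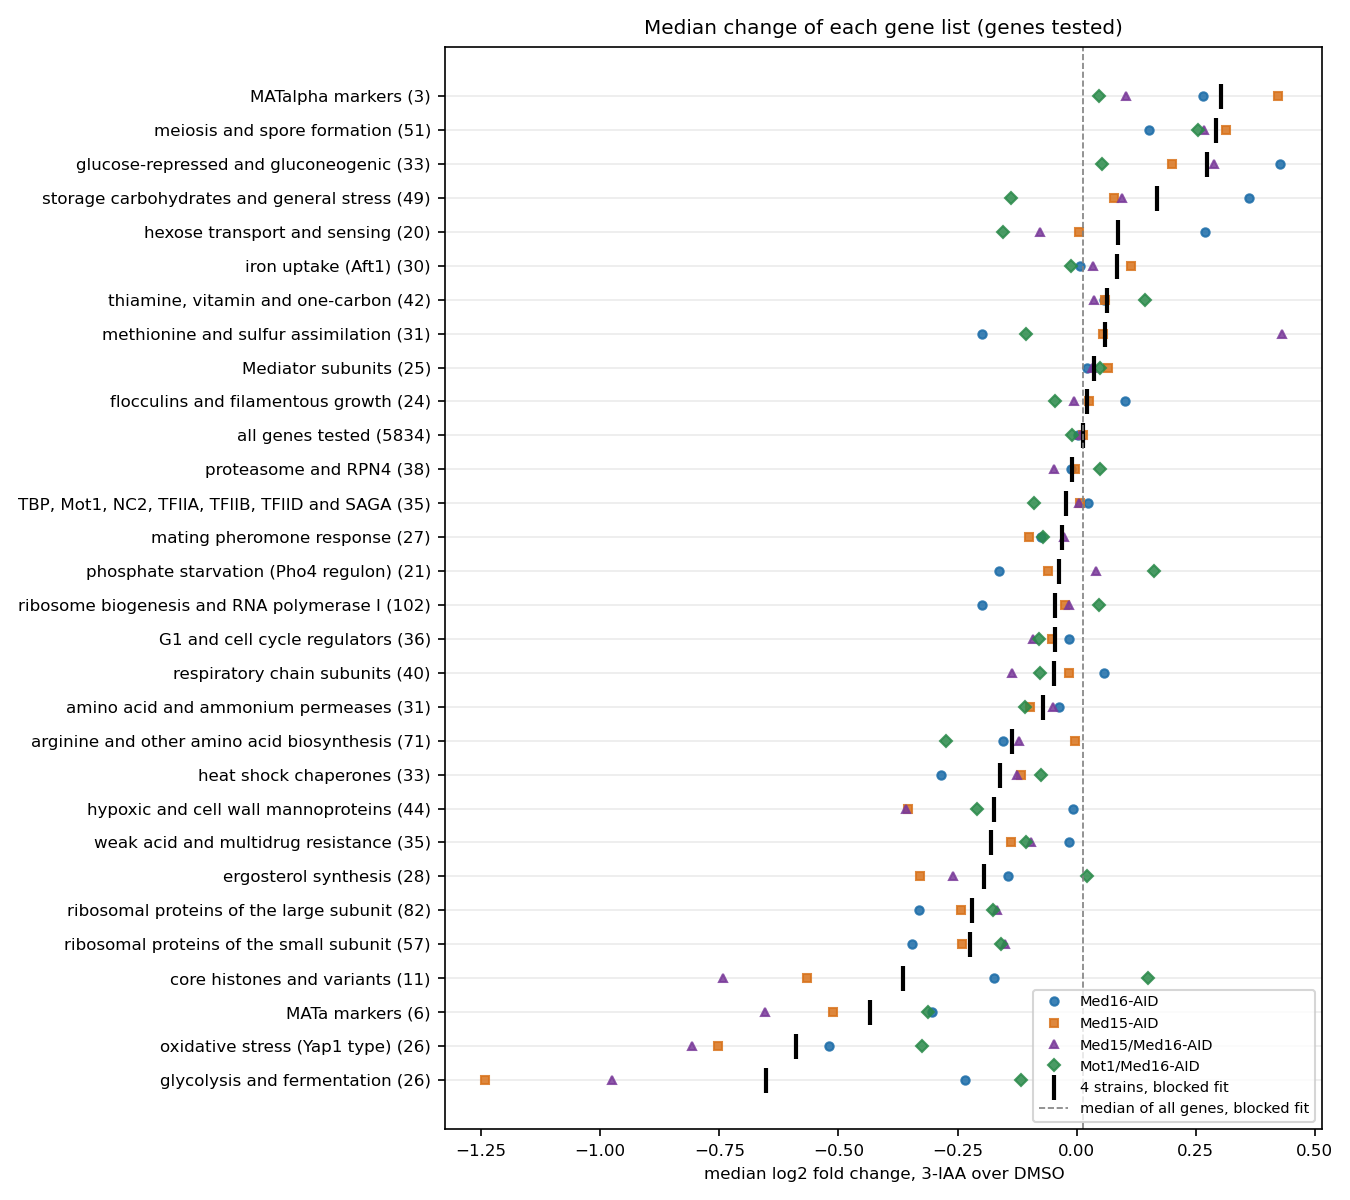
Median log2 fold change of 3-IAA over DMSO (horizontal axis) for each gene list, with the number of genes tested in brackets: the blocked value (bar) and the value in each strain (symbols), with all genes tested as a list of their own and as a dashed line. The glycolysis list has the lowest blocked median (-0.65), and its strain medians span -1.24 to -0.12.

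Histone genes separated the strains. All but 1 of 11 tested genes fell in the blocked comparison, but 5 were shared lower, since the fold changes of the other 5 were above 0 in Mot1/Med16-AID. With library totals alone 4 were lower. Over all genes tested, 15% were lower and 11.4% shared lower on the TMM scale. HTB2, which encodes histone H2B, had 318, 308 and 332 CPM with 3-IAA, against 659, 632 and 690 CPM with DMSO, in Med15-AID. In Mot1/Med16-AID it had 682, 635 and 602 CPM, against 677, 717 and 665 CPM, which overlap. The histone H3 gene HHT2 fell by 0.67 as a block and was called in each strain. The list median was -0.36, with -0.74 in Med15/Med16-AID and 0.15 in Mot1/Med16-AID.

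Among the biosynthetic pathways, amino acid genes fell more often than they rose. In the list of arginine and other amino acid pathways 38 of 71 tested genes fell and 2 rose, with a median of -0.14. Library totals alone gave 24 lower, 14 higher and a median of -0.0038. All genes then had a median of 0.14, with 394 of 5834 lower and 3158 higher. The asparagine synthetase gene ASN1 had 887 to 1460 CPM with 3-IAA, against 1403 to 2231 CPM with DMSO, ranges that overlap across strains, and fell by 0.72. GLY1 (threonine aldolase), ARO10 (a decarboxylase of the Ehrlich pathway) and HIS4 (histidine synthesis) fell by 0.73, 0.86 and 0.60, each called in all 4 strains. Of the amino acid permeases, 13 of 31 fell and 5 rose, among them BAP2, a branched-chain amino acid permease, with -0.56, while library totals alone gave 11 higher and 8 lower. In the ergosterol list 17 of 28 genes fell and 5 rose (11 and 7 with library totals alone), and ARE2, which esterifies sterols, had 293 to 361 CPM with 3-IAA, against 451 to 816 CPM with DMSO, without overlap. Of 33 heat shock chaperone genes, 17 fell and 2 rose (9 and 7 with library totals alone). The co-chaperone gene STI1 fell by 0.42, with log2 fold changes between -0.36 and -0.52 in the strains (interaction adjusted p = 0.57). Of 30 iron uptake genes 8 were higher and 8 lower (18 and 6 with library totals alone). Each of these lists stands against 13.5% higher and 15% lower over all genes tested on the TMM scale.

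The remaining lists are set against 13.5% higher and 15% lower over all genes tested. With library totals alone, 3158 of 5834 genes were higher and 394 lower. Of 38 tested proteasome genes 2 were higher and none was lower (edgeR; 3 were lower at an unadjusted p of 0.05 and 1 by DESeq2), and the list median was -0.01, or 0.12 with library totals alone, which gave 26 higher and none lower. The methionine and sulfur list had 3 of 31 genes higher and 5 lower (16 and 3 with library totals alone), and the phosphate starvation list 4 of 21 higher and 5 lower (9 and 3). The thiamine, vitamin and one-carbon list had 9 of 42 higher and 3 lower (22 and 2 with library totals alone), and the flocculin list 4 of 24 higher and 5 lower (11 and 3). Of 27 pheromone response genes 4 were higher and 10 lower (11 and 5 with library totals alone), and of 36 genes of G1 and the cell cycle 4 were higher and 11 lower (13 and 7). Mediator subunits had 1 gene higher, MED16 itself, and 1 lower, SRB6, of 25 tested, while library totals alone gave 19 higher and none lower. Genes of TBP, TFIID, SAGA and their partners had 2 lower of 35, against 16 higher and none lower with library totals alone. Meiosis and spore formation genes had 17 of 51 higher and none lower, also none at an unadjusted p of 0.05 or by DESeq2, with a median of 0.29, at low levels: SPR3, a septin of spore formation, rose by 0.68 at a mean log2 CPM of 2.7. Library totals alone gave 39 higher. Of the 51 meiosis genes, 13 were shared higher (9.46% over all genes) and 0 were called higher in each strain. In Mot1/Med16-AID 10 of them were called higher and 3 lower. NDJ1, described above among the largest falls, also acts in meiosis and is no member of that list. General stress genes had 17 of 49 higher and 6 lower (29 and 3 with library totals alone), and 8 were shared higher and 2 shared lower. Their medians were 0.36, 0.08, 0.10 and -0.14 in Med16-AID, Med15-AID, Med15/Med16-AID and Mot1/Med16-AID. In Mot1/Med16-AID 10 were called higher and 10 lower. Of 6 tested a-specific genes 5 were lower, with the pheromone gene MFA1 at -0.58, and 2 of 3 tested alpha-specific genes, STE3 and SAG1, were higher by 0.39 and 0.30.

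The shared genes chosen for their large change and lack of interaction were mostly at the edge of detection. RRT12, BSC4, YKL177W and YOL118C had log2 fold changes of 1.25, 1.20, 1.09 and 1.01. Each library of 3-IAA-treated cells held 1 to 19 counts of such a gene, and each DMSO library 0 to 9. For RRT12 the 3-IAA libraries held 2 to 19 counts and the DMSO libraries 0 to 8, which overlap across strains. In unstranded counts YOL118C reversed to -0.76 and RRT12 dropped to 0.09 and no longer passed (adjusted p = 0.29).

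The size of the response differed between strains in many genes. The interaction of strain and treatment passed in 1767 genes (30.3% of those tested). It passed in 242 of the 665 shared lower genes (36.4%) and in 119 of the 552 shared higher genes (21.6%). Among the genes called in each strain it passed in 56 of 99 lower genes and 6 of 10 higher genes. Of the 1664 genes called as a block, 447 had a sign that differed between strains and were left out of the shared sets.

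The shared genes were then looked up in med16-deletion against wildtype, which had no 3-IAA and shared no library with the degron strains. That comparison called 1050 of 5610 genes (18.7%), 490 higher (8.73%) and 560 lower (9.98%). Of the 665 shared lower genes 663 were tested there, and 557 of these (84.0%) had a negative log2 fold change, with a median of -0.18. In 263 of them (39.7%) the fall was called. Of the 552 shared higher genes 521 were tested, 407 (78.1%) had a positive fold change, the median was 0.15, and 112 (21.5%) were called higher. Over all genes of both comparisons, 46.7% had a negative and 53.3% a positive log2 fold change in the deletion. Of the same genes, 9.99% were called lower and 8.75% higher. Of the 99 genes called lower in each degron strain, 86 were called lower in the deletion (86.9%), and of the 10 called higher in each, 6 were.

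Of the 15 largest falls, 14 were also called lower in med16-deletion. FLR1 had 2787, 2412 and 2668 CPM in med16-deletion, against 6096, 6255 and 6225 CPM in wildtype (log2 fold change -1.24). OSI1 had 188, 184 and 185.5 CPM, against 504, 477 and 374.5 CPM, and DSE2 136.5, 104.4 and 98.3 CPM, against 415, 428 and 378 CPM. YER053C-A was the exception, with 135.5, 151 and 170.2 CPM in med16-deletion, against 169, 143 and 129 CPM in wildtype (log2 fold change 0.05, adjusted p = 0.821). Of the 15 largest rises, 9 were called higher in the deletion, among them ACH1 (1.54) and CAT2 (0.90). BIO2 and TDA4 had values of -0.09 and -0.08 there and did not pass. BIO2 had 71.1, 64.1 and 87.9 CPM in med16-deletion, against 83.6, 79.9 and 73.3 CPM in wildtype, which overlap.

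Lists did not all keep their size in the deletion. Over all genes of the deletion comparison, 8.73% were called higher and 9.98% lower. The oxidative stress list had 19 of its 26 genes called lower and a median of -0.73. The heat shock list had 26 of 33 lower and a median of -0.85, against -0.16 in the 3-IAA comparison. Respiratory chain genes had 36 of 40 called higher and a median of 0.67 in the deletion, while 2 were higher and 6 lower with 3-IAA, at a median of -0.05 that turned to 0.09 with library totals alone. Ribosomal proteins of the large subunit had 4 of 82 called lower and a median of -0.07. These differences between the comparisons were not tested, and strain background, the degron and the additives differ between them.

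**Figure D5:**
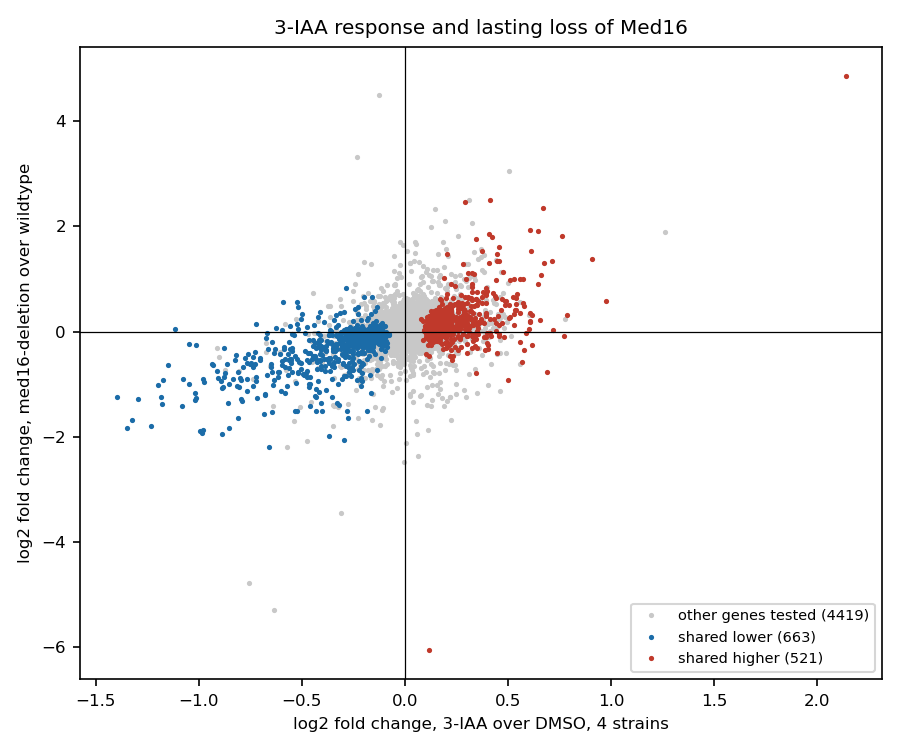
Log2 fold change of 3-IAA over DMSO in the 4 degron strains (horizontal axis) and of med16-deletion over wildtype (vertical axis) for each gene tested in both, with shared lower and shared higher genes in colour. Most shared lower genes (557 of 663) lie below 0 and most shared higher genes (407 of 521) above 0 on the vertical axis, with MED16 at -6.06. Of all genes tested in both, 46.7% lie below 0 and 53.3% above 0 on that axis.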

How the data were processed

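Gene counts were made and deposited by the authors, who aligned reads to sacCer3 with STAR 2.6.1a and counted reads per gene on both strands. The sense column was used here for all 30 libraries, with 6692 genes each, and the summary lines at the top of each file (multimapping reads took between 35.5% and 58.2% of the reads in the 24 degron libraries) were left out of library sizes. The study normalised to Schizosaccharomyces pombe spike-in reads with DESeq2, and spike-in counts were not used here.

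Genes were kept by filterByExpr over 8 groups (5834 genes), scaled by TMM and tested with edgeR 4.0.16 quasi-likelihood fits: strain and treatment for the shared effect, and 8 groups for the contrasts within a strain and for the interaction (3 degrees of freedom). All p-values were adjusted by Benjamini-Hochberg at 0.05. The fits were run on simulated counts with a single fixed spread and the same change in every strain. That run does not cover changes that differ between strains or uneven spread between replicates. The med16-deletion and wildtype libraries were filtered, scaled and fitted apart. DESeq2 1.42.0 served as an alternative, with other scalings, filters, strands and left-out libraries. Of 6692 gene IDs, 6008 matched RefSeq R64, which was used for names, coordinates and promoters.

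The genes named are the tagged genes, the 15 largest rises and 15 largest falls among called genes with 1 sign and no overlap in any strain (auxotrophic marker genes left out), 5 shared genes with the smallest interaction p, 5 with the largest change at an interaction adjusted p above 0.5, and up to 6 members a list by smallest p. TRX2, FLO11 and the promoters printed were chosen after their values were seen. The members, gene lists and motifs were chosen with earlier results of these data known. In the degron strains, replicates of a group differed by more than sampling noise in every pair. This cannot show that they came from separate cultures, since libraries of 1 culture can also differ by more than sampling noise. Each library was counted as 1 replicate without that being known.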

Additional observations from a re-analysis of the deposited data

Results flagged for a closer look

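The effect of 3-IAA differed between the 4 strains in 1767 genes by the test of the interaction of strain and treatment (edgeR). Among the named genes that passed it, the highest strain value lay above the lowest by the following amounts on the log2 scale. The spread was 1.66 for YER053C-A, 1.52 for HXT1, 1.42 for AHP1, 1.35 for FLR1, 1.32 for ZEO1, 1.31 for GRE2, 1.28 for HXT3, 1.14 for HTB2, 1.12 for SNQ2 and 1.01 for DSE2. It was 0.97 for SCW11, 0.94 for OYE2, 0.84 for EGT2, 0.81 for NDJ1, 0.79 for MTC7, 0.66 for ATR1, 0.64 for SRD1 and 0.62 for OSI1. Among the rises it was 0.91 for ABZ1, 0.86 for GPM2, 0.72 for FMS1, 0.66 for PMT3, 0.61 for EUG1, 0.60 for HEM13, 0.50 for BIO2 and 0.42 for UGA1. For MOT1 it was 1.21, and the strains had opposite signs there.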

How the results depend on the processing

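With library totals alone, where the median of all genes moved to 0.14, 3552 genes passed, 3158 higher and 394 lower (88.9% higher, against 47.5% with TMM), with 2217 shared higher, 258 shared lower, 195 called higher and 64 called lower in each strain. It gave 1822 calls in Med16-AID, 2654 in Med15-AID and 1901 in Med15/Med16-AID. In med16-deletion it gave 280 shared higher genes called higher and medians of 0.32 for shared higher and -0.011 for shared lower genes. Upper-quartile factors gave 63.5% of calls higher, 870 shared higher genes and 16 called higher in each strain. Without the strain block 175 genes passed, 58 higher and 117 lower, with 55 shared higher and 115 shared lower, and MOT1 reversed to 0.25. With each strain fitted alone, a setting chosen after seeing the data, as was leaving out libraries for single strains and the interaction, 443 genes passed in Med16-AID and 1102 in Med15-AID, and 5 were called higher in each. MED15 reversed to -0.029 without the Med16-AID strain, and YOL118C to -0.76 in unstranded counts. DESeq2 called 1711 genes. The cause of these shifts was not tested. Leaving out a library gave between 793 (Med16-AID +IAA replicate 1 left out) and 1270 calls in Med16-AID, and between 69 and 133 shared higher genes called higher in the deletion: 71, 74 and 69 without wildtype replicate 1, 2 or 3 and 73 without med16-deletion replicate 2. The blocked comparison then gave between 1515 and 1745 calls. A fit that blocks on replicate number called 1233 genes, of which 451 were shared higher and 567 shared lower, and it called 5 of 11 histone genes and 13 of 102 ribosome biogenesis genes lower. For same-numbered 3-IAA and DMSO libraries of a strain, r of their deviations from the group means exceeded 0.1 in 4 of 12 pairs. Some pairs of unlike number had a higher r. It was 0.60 for 3-IAA replicate 2 and DMSO replicate 1 of Med16-AID, and 0.57 for 3-IAA replicate 1 and DMSO replicate 2 of Mot1/Med16-AID. Whether libraries shared a culture or day is not known from these values. Of 41 named genes, 22 kept direction and call in every setting.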

Other observations

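Vehicle levels of some shared genes in Med16-AID lay below those of untreated wildtype, a difference that was not tested. TMM factors of the degron libraries were set apart from those of wildtype and med16-deletion, so these CPM do not share a common scale. How much of the difference comes from the scaling was not tested. In Med16-AID, FLR1 averaged 3081 ± 462 CPM with DMSO (SD, n = 3), against 6192 ± 84.8 CPM in untreated wildtype, and ATR1 had 1302 to 1366 CPM, against 2574 to 2685 CPM. HXT1 had 1367 to 1401 CPM with DMSO, against 3301 to 3859 CPM in wildtype, and HXT3 had 1741 to 1953 CPM, against 4256 to 4352 CPM. The tag, OsTIR1, DMSO and strain lineage differ between these groups and cannot be told apart. PHO84, the high-affinity phosphate transporter, was called lower as a block (log2 fold change -0.76) but was left out of the shared genes, with -0.79 in Med16-AID, -1.28 in Med15-AID, 1.36 in Med15/Med16-AID and -0.58 in Mot1/Med16-AID. The interaction did not pass for it (adjusted p = 0.072). In med16-deletion it had a log2 fold change of -4.79 against wildtype.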
